A study of Neurospora crassa OR74A with 26 samples.

Results

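The genes described here are 80 of the 9733 genes of Neurospora crassa that were high on cellulose, low on sucrose and without a carbon source, and low on cellulose in both of the strains that lacked a transcription factor gene. They were chosen on FPKM at 4 h after a change of medium. FPKM is fragments per kilobase of transcript, scaled between libraries in a way that is not stated. The wild-type mean had to be at least 20 on Avicel and at least 4-fold above the wild-type means on sucrose and without carbon. It also had to be at least 4-fold above the value of either deletion strain on Avicel. Each mean had 1 added. The 3 wild-type limits alone were met by 142 genes, of which 62 missed the limit in a deletion strain. Of these 62, 11 met it in the clr-1 deletion alone, 5 in the clr-2 deletion alone and 46 in neither. Among the 11 is the gene clr-1 itself, whose own deletion fixes that entry. By the symbols in the reference table, 15 of the 80 are glycoside hydrolases, 7 are polysaccharide monooxygenases or a cellobiose dehydrogenase, 5 have other symbols and 53 have none; the 65 that are not glycoside hydrolases by symbol are the main subject. Of the 53, NCU07326, NCU05955 and NCU09775 stood on the list of known glycoside hydrolases drawn up for the analysis, but have no symbol in the reference table, and they are counted with the genes without a symbol. Because the 4 h levels chose the members, those levels are given as a description, without a test, and tests were made on the 1 h and 2 h libraries. Of the 80, 77 also stand among the 212 genes of the authors' deposited cluster list, which was drawn from these samples and is no independent evidence.

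Neurospora crassa is a filamentous ascomycete that grows on burnt plant matter and secretes enzymes that take cellulose apart. Cellobiohydrolases and endoglucanases cut the glucan chain, polysaccharide monooxygenases break it by oxidation with electrons supplied by cellobiose dehydrogenase, and transporters carry the released cellodextrins into the cell, where a beta-glucosidase splits them to glucose. The zinc binuclear cluster transcription factors CLR-1 and CLR-2 are known as regulators of genes for cellulose use in this fungus.

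Cultures were grown for 16 h in sucrose medium, washed, and moved to sucrose, to Avicel PH101 (microcrystalline cellulose) or to medium without carbon. Wild type was strain FGSC 2489, with 3 libraries in each of 5 groups (Avicel at 1 h and 4 h, sucrose at the same times, no carbon at 4 h) and 1 library on Avicel at 30 min and at 2 h and without carbon at 1 h. Strain FGSC 11029 carries a hygromycin resistance cassette in place of the open reading frame of clr-1 (NCU07705, cdr1 in the sample titles), and strain FGSC 15835 in place of that of clr-2 (NCU08042, cdr2). Each deletion strain gave 4 libraries, 1 for each medium (Avicel, sucrose) and time (1 h, 4 h), so its spread was taken from the wild-type triplicates and no deletion group could be checked by a replicate.

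The 26 libraries held between 11.8 M and 110.6 M reads (M, mega) by the deposited coverage and transcript lengths. Replicate 1 of wild type on Avicel and sucrose had reads of 36 or 40 bases and the no-carbon libraries reads of 51 bases, whereas the other replicates and both deletion strains had 50. The Avicel 30 min and 2 h libraries had 36. Replicates correlated at r = 0.901 to 0.992 (Pearson, log2 scale, across tested genes, 15 pairs). A value of 0 says only that the gene is listed at 0. On Avicel the gene clr-1 was at 6.13 and 11.01 FPKM in its deletion strain at 1 h and 4 h, against 530.1, 375 and 253 in wild type at 1 h and 519, 936 and 950.3 at 4 h. On sucrose the gap was narrower, with 12.99 and 23.1 in the deletion against 59.3, 22.3 and 27.6 in wild type at 1 h and 53.01, 43.3 and 40.4 at 4 h. The gene clr-2 was listed at 0 in all 4 libraries of its own deletion strain. The summed level of 4 conidiation markers, genes of the spores that a mycelial culture could hold, was 18532 to 36867 FPKM in wild type on Avicel at 4 h, 15063 in the clr-1 deletion, 22694 in the clr-2 deletion and 73011 to 209204 without carbon, and none of the 4 was at 0 there. Their part in the results was not tested. In bulk RNA, fewer cells of a kind and less RNA per cell cannot be told apart.

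On Avicel at 4 h the members made up 22.6%, 14.8% and 17.8% of all FPKM in the 3 wild-type libraries, and those beyond the glycoside hydrolases 8.91%, 5.65% and 6.81%, or 8.31%, 5.45% and 6.59% without the 3 listed genes that have no symbol. In the same unit all 80 together held 0.0602% to 0.131% on sucrose and 0.148% to 0.205% without carbon at 4 h, 0.564% in the clr-1 deletion and 0.588% in the clr-2 deletion. Mean levels on Avicel at 4 h ran from 21.8 FPKM for NCU05848 to 125864 FPKM for the cellobiohydrolase gene cbh-1, with a median of 1537 FPKM. FPKM is scaled by transcript length, so levels of different genes can be set side by side.

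**Figure D1:**
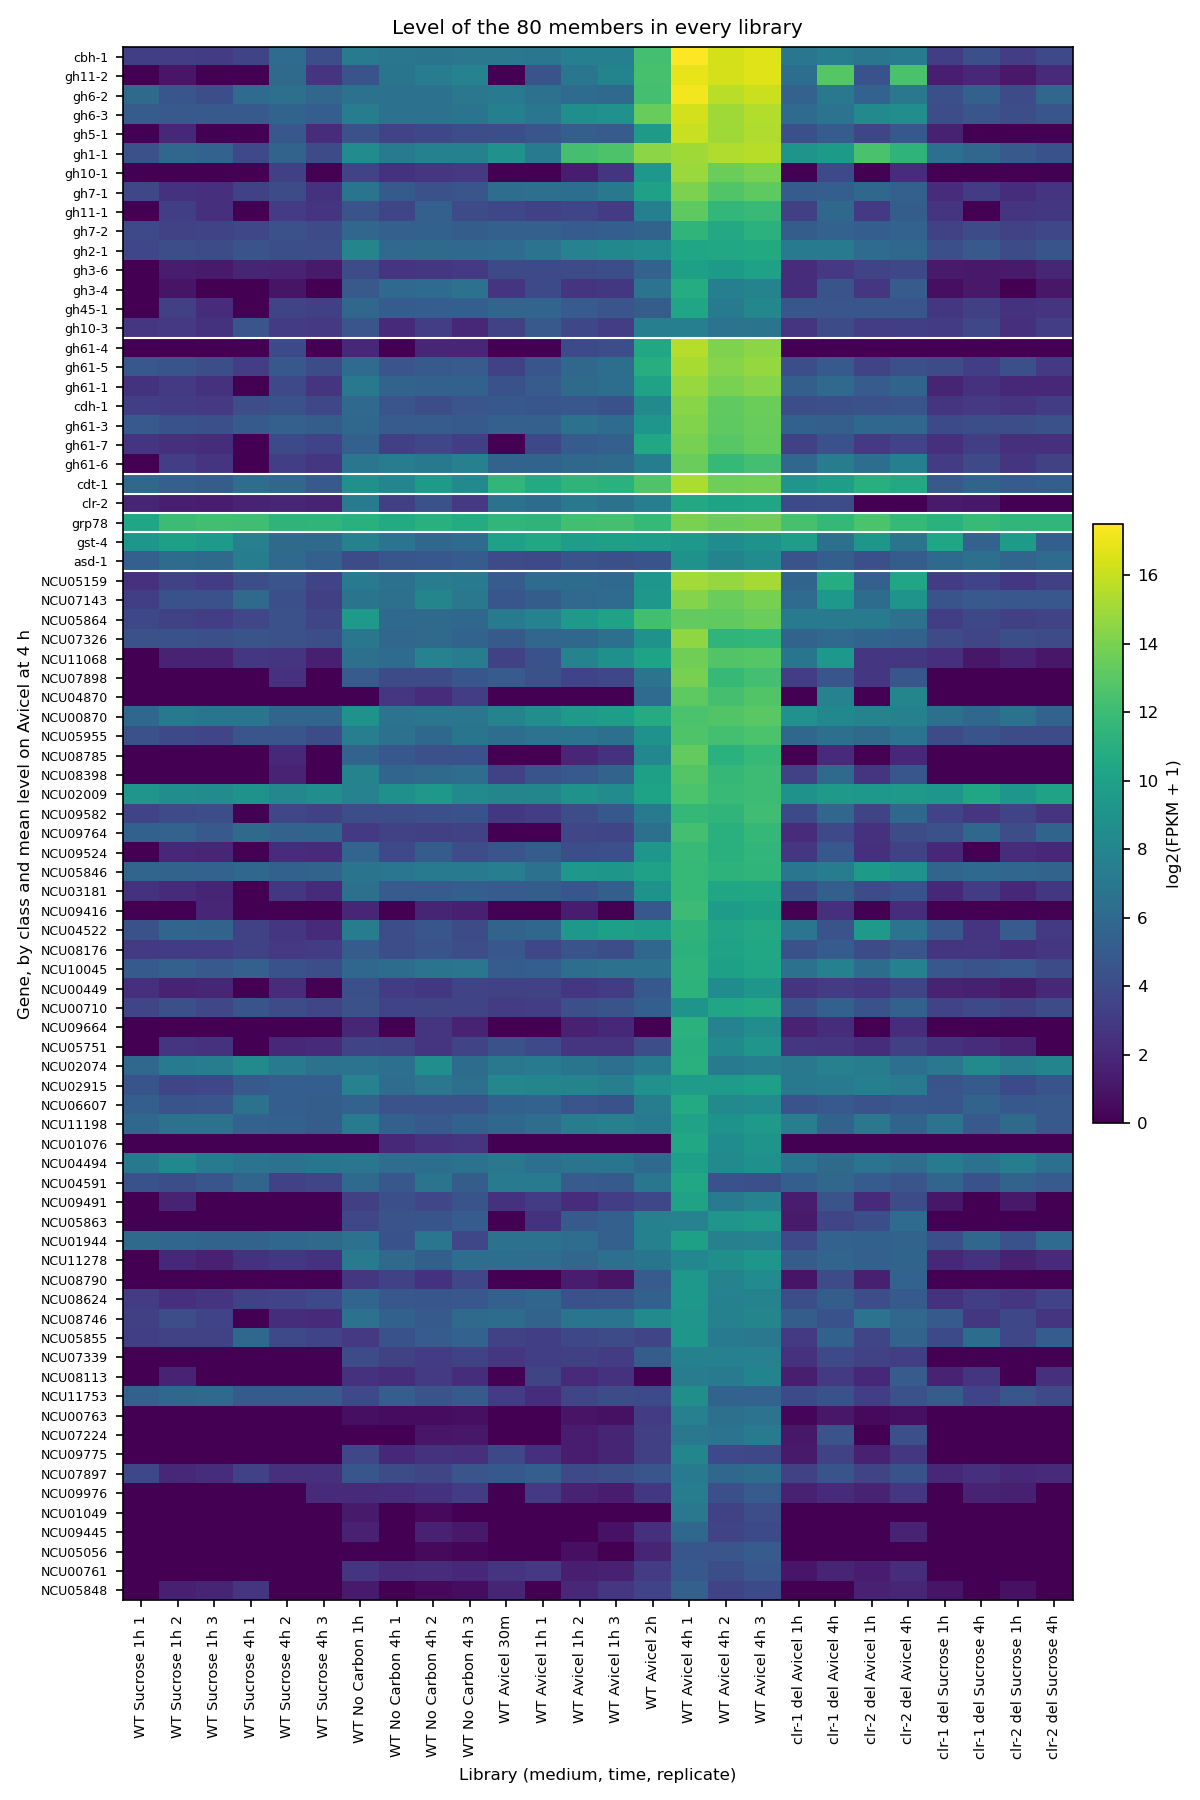
Level of each of the 80 members (rows) in each of the 26 libraries (columns) as log2(FPKM + 1), with white lines between the classes and genes ordered by mean level on Avicel at 4 h within a class. By group mean over the wild-type Avicel times alone, 78 members were highest at 4 h, gst-4 at 1 h and gh10-3 at 2 h. Other media and the deletion strains were not part of that ranking, and the 4 h level was used in the choice of members.

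By symbol, 6 monooxygenase genes and cdh-1 were members. The 53 members without a symbol were not sorted by enzyme and may hold more of them. The monooxygenase gene gh61-4 (supercontig 10.5, 2769232 to 2770004) had 49138, 17896 and 22868 FPKM on Avicel at 4 h, 0, 14.1 and 0 on sucrose and 0, 2.75 and 2.70 without carbon, and was listed at 0 in both deletion strains on Avicel at 1 h and 4 h. The monooxygenase gene gh61-5 (supercontig 10.3, 5242633 to 5244087) had 37828, 20619 and 27142 FPKM on Avicel at 4 h and 30.8 and 18.8 in the clr-1 and clr-2 deletions. For cdh-1 (supercontig 10.3, 3004156 to 3007087), the cellobiose dehydrogenase gene, the wild-type values were 21319.9, 9524 and 12497 and the deletion values 18.1 and 22.6. In none of these genes did a sucrose, no-carbon or deletion library come near the wild-type Avicel range. Means on Avicel at 4 h ran from 6797 ± 4489 FPKM for gh61-6 to 29968 ± 16788 for gh61-4 (SD, n = 3). The other 6 genes of the 13 in the list of monooxygenases and cellobiose dehydrogenases, cdh-2 among them, were not members.

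The cellodextrin transporter gene cdt-1 (supercontig 10.1, 7121829 to 7124065) had 41156, 12847 and 13786 FPKM on Avicel at 4 h. The deletion strains kept 852 FPKM without clr-1 and 1517 without clr-2, against 77.2, 53.1 and 28.4 in wild type on sucrose. The second cellodextrin transporter gene, cdt-2, was cellulose-specific but no member: it kept 13218 and 29032 FPKM in the clr-1 and clr-2 deletions, where wild type had 34039.6, 64599 and 70796. The regulator gene clr-2 (supercontig 10.4, 4001190 to 4004631) had 1521, 1122 and 1289.6 FPKM on Avicel at 4 h, 9.18, 19.7 and 6.63 without carbon and 2.13, 2.74 and 2.42 on sucrose. In the clr-1 deletion it stood at 15.1, within the no-carbon range and far under the wild-type Avicel range. Its own deletion fixes the other limit, so its membership rests on the clr-1 deletion alone. The gene clr-1 was cellulose-specific too, and at 4 h had 507 FPKM in the clr-2 deletion on Avicel.

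The chaperone gene grp78 (supercontig 10.6, 2302462 to 2305332), whose Hsp70-type product folds proteins in the endoplasmic reticulum, was the member with the highest level in any sucrose or no-carbon library. It had 15979, 11826 and 13257 FPKM on Avicel at 4 h, 4451, 2710.0 and 2747 on sucrose, 1673, 2173 and 1713 without carbon, and 3272 and 3418 in the clr-1 and clr-2 deletions. Both deletion values lay inside the sucrose range. The glutathione S-transferase family gene gst-4 (supercontig 10.7, 3417589 to 3418970) had 641, 372 and 505 FPKM on Avicel at 4 h but 1376, 844 and 969 at 1 h. It overlaps NCU06938, a gene at a mean of 0.901 FPKM on Avicel at 4 h, by 160 bases. The gene asd-1 (supercontig 10.6, 1378109 to 1380263), named for ascus development, had 496, 236 and 355 on Avicel and 166, 61.2 and 40.6 on sucrose at 4 h, and these groups did not overlap.

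Of the 53 members without a symbol, NCU05159 (supercontig 10.6, 3538858 to 3540319) was the highest, with 34712, 27982 and 35960.4 FPKM on Avicel at 4 h, above every monooxygenase gene by its mean. It kept 1828 FPKM in the clr-1 and 1325 in the clr-2 deletion at 4 h, above its no-carbon values of 90.98, 174 and 138. The next highest were NCU07143 at 20034, 11819 and 15563, NCU05864 at 10309.9, 9424 and 11884 and NCU07326 at 24582, 2864 and 3146 FPKM. NCU05864 held to a narrow range over the replicates, whereas NCU07326 was far higher in replicate 1 than in the others. The files and the reference table give only identifiers for these 4, and NCU07326 is one of the 3 on the list of hydrolases.

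Replicate 1 on Avicel at 4 h, a library of 40-base reads, decided the membership of some genes. It was the highest of the 3 for 66 of 80 members, and at least 2 times above both others for 33; of the 7286 genes of at least 20 FPKM there, 36.04% were highest in it and 9.90% by at least 2 times. Without it, 64 of the 80 still met the limits, and 16 did not: grp78, asd-1, gst-4, gh3-4 and 12 genes without a symbol. NCU04591 was the extreme case, with 1429, 20.8 and 18.8 FPKM, and NCU02074 had 2248, 155 and 176. On sucrose at 4 h NCU04591 had 51.1, 9.95 and 11.4 and NCU02074 336, 139 and 96.99, so that in both genes Avicel replicates 2 and 3 lay inside the sucrose range. The replicates of grp78 were close to each other, and its lowest ratio with all libraries was 4.00. Leaving out Avicel replicate 2 or 3, or sucrose replicate 1 alone, lost no member, and leaving out sucrose replicate 2 or 3 lost 4.

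Closest inside the 4-fold limit were grp78 at 4.00, asd-1 at 4.03 and NCU07897 at 4.05, each the lowest of the gene's 4 ratios. Closest outside were NCU08043 at 3.92, NCU09523 at 3.88 and NCU11520 at 3.87. At the level limit, NCU05848, NCU00761 and NCU05056 were inside with means of 21.8, 23.4 and 26.9 FPKM, and NCU00871, NCU09774 and NCU00764 outside with 17.4, 16.6 and 8.71. NCU08043 lies next to clr-2, and the 3 genes under the level limit lie next to the members NCU00870, NCU09775 and NCU00763.

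The 1 h libraries, which the choice did not use, answer which members had responded early. Differences are between group means on the log2(FPKM + 1) scale. The test was limma (two-sided) with Benjamini-Hochberg adjustment over the 8629 tested genes, and a gene passed at an adjusted p under 0.05. All 80 members were tested, and 75 would have passed the filter without the wild-type Avicel 4 h libraries. On Avicel at 1 h, 45 members were higher than on sucrose and 4 lower, where 37.3% of all tested genes were higher and 24.6% lower. The median difference of the members was 1.72, and that of all tested genes 0.34. After scaling by the median of gene ratios these were 1.58 and 0.20. By class, 12 of 15 glycoside hydrolases, 6 of 7 monooxygenase and dehydrogenase genes and 25 of 53 genes without a symbol were higher, among them 2 of the 3 on the list of hydrolases.

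The members named next are not glycoside hydrolases by symbol. Those given by an NCU number have no symbol, so hydrolase genes may be among them. NCU11068 had 20.5, 228 and 448 FPKM on Avicel and 0, 2.14 and 2.43 on sucrose at 1 h. Its log2 difference was 5.88 (SE 0.90, adjusted p = 7.61e-05 by limma). For cdt-1 the values were 1679.6, 2708 and 2334 and 58.2, 40.8 and 35.03 (log2 difference 5.62, SE 0.49, adjusted p = 5.42e-07), for NCU05864 221, 669 and 1079 and 13.1, 10.2 and 8.10 (log2 difference 5.59, SE 0.43, adjusted p = 1.90e-07). The regulator gene clr-2 had 73.6, 127 and 97.9 against 2.51, 1.76 and 1.52 FPKM (log2 difference 5.08, SE 0.35, adjusted p = 8.38e-08). In each of these 4 genes the Avicel and sucrose libraries did not overlap. NCU08398 and NCU11278 rose by 5.01 and 4.91 on the log2 scale. The rises of the monooxygenase genes were smaller at this time, from 1.10 for gh61-5 to 3.90 for gh61-6, and 1.55 for cdh-1; gh61-4 did not pass (2.69, SE 1.14, adjusted p = 0.0537), but did with the replicate number as a block (2.69, SE 1.04). grp78 and gst-4, with differences of 0.48 and 0.49, did not pass either.

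The 4 members that fell on Avicel at 1 h were asd-1 and 3 genes without a symbol. asd-1 had 13.7, 21.7 and 18.6 FPKM on Avicel and 40.3, 73.3 and 66.4 on sucrose at 1 h (log2 difference -1.66, SE 0.44, adjusted p = 0.00517). NCU09764 had 0, 12.52 and 11.5 and 42.5, 43.7 and 29.02 (-2.81, SE 0.73, adjusted p = 0.00446), and NCU11753 4.00, 11.4 and 14.9 and 39.5, 59.7 and 60.96 (-2.42, SE 0.67, adjusted p = 0.00672). NCU04494 had 84.5, 106 and 111 and 137, 283 and 150.2 (-0.84, SE 0.34, adjusted p = 0.044). With the replicate number as a block NCU04494 no longer passed (-0.84, SE 0.36). In all 4 every Avicel library lay under every sucrose library at 1 h and above every sucrose library at 4 h, a pattern that 1.58% of all genes shared.

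In the single no-carbon library at 1 h, 46 members were higher than on sucrose and 2 lower (background 35.5% and 23.4%), where the median log2 difference was 2.34 for the members and 0.44 for all tested genes. This comparison shares the sucrose libraries with the one above, and its no-carbon reads were of 51 bases. NCU08398 stood at 228 FPKM without carbon, against 22.1, 29.04 and 47.6 on Avicel and 0 in all 3 sucrose libraries. clr-2 stood at 139.8 FPKM, above the Avicel range of 73.6, 127 and 97.9, and then at 9.18, 19.7 and 6.63 without carbon at 4 h. asd-1 and gst-4 were lower without carbon than on sucrose, with log2 differences of -1.86 and -1.82.

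Set directly against each other at 1 h, Avicel and no carbon gave no called member by limma (0 of 80, with 9 at an unadjusted p under 0.05; background 0.464% higher and 0.324% lower), and the median difference was -0.40. When the replicate 1 libraries of shorter reads were left out, 10 members were higher and 12 lower on Avicel, against a background of 12.9% and 14.4%. Among the higher ones the log2 differences were 2.58 for NCU05846, 4.05 for gh1-1, 2.48 for cdt-1, 2.23 for NCU04522 and 2.11 for gst-4. Among the lower ones they were -3.40 for NCU08785, -2.58 for NCU08398 and -1.38 for cdh-1. For NCU05846 the 1 h values were 89.9, 655 and 627 FPKM on Avicel and 106 without carbon, so that replicate 1 lay under the no-carbon library and the other two above it. Both counts are near the background and are no result about the members. What part read length had was not tested.

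**Figure D2:**
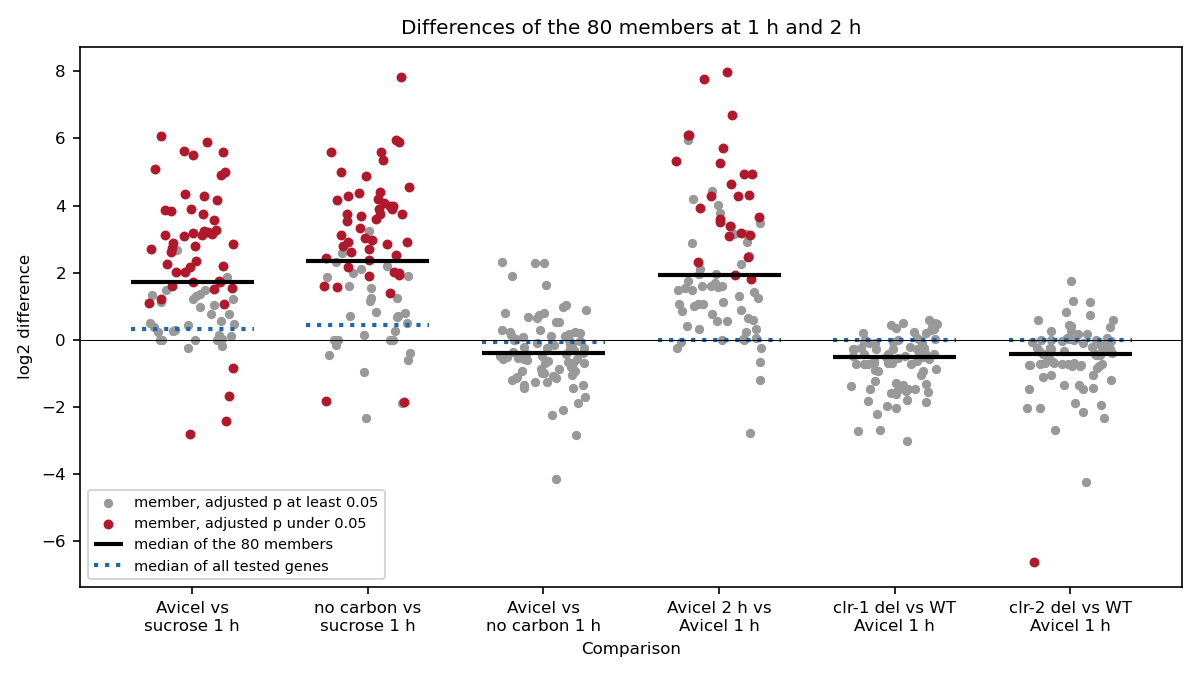
Log2 difference of each of the 80 members (points) in 6 comparisons of 1 h and 2 h libraries; red points had an adjusted p under 0.05, black bars mark the members' median and dotted blue bars that of all tested genes. The medians lie at 1.72 and 2.34 for Avicel and no carbon against sucrose, at -0.40 for Avicel against no carbon and at 1.95 for Avicel at 2 h against 1 h.

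Between 1 h and 2 h on Avicel, 26 members passed by limma, each higher at 2 h, where 1.65% of all tested genes were higher and 0.950% lower. The median difference was 1.95, and 0.00 over all tested genes. The count was 13 with 0.1 in place of 1 added to each value. Without the replicate 1 libraries of shorter reads 52 members were higher and 1 lower, against a background of 13.0% and 15.5%. The 2 h group was 1 library of 36-base reads, so without those libraries it stood against 1 h libraries of 50-base reads only. Time and read length cannot be told apart in that setting. Against the 1 h replicate of the same read length, 69 of 80 members were higher, 45 of them by at least 4-fold, with a median difference of 2.32. Of all tested genes, 4.43% were at least 4-fold higher and 1.52% at least 4-fold lower. From 30 min to 1 h, again within 36-base libraries, 39 were higher and 27 lower, with a median difference of 0. Of these, 5 were at least 4-fold higher, where 1.77% of all tested genes were at least 4-fold higher and 1.45% lower.

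In this interval the median difference of the 7 monooxygenase and dehydrogenase members was 4.28. The 15 members that are glycoside hydrolases by symbol had a median of 3.78, so a rise was not particular to the first group. Each 2 h value is 1 library. gh61-5 was at 9.33 FPKM at 30 min, 24.8, 54.8 and 78.8 at 1 h, 1963 at 2 h and 37828, 20619 and 27142 at 4 h (2 h against 1 h: 5.34, SE 0.60, adjusted p = 0.000637). cdh-1 was at 27.3, 24.7, 26.5 and 19.9, 311 and 21319.9, 9524 and 12497 FPKM at the same times (3.67, SE 0.41, adjusted p = 0.000637). All 3 libraries at 1 h lay under the 30 min value for cdh-1 and above it for gh61-5. Of the 7, gh61-6 had the smallest difference, at 1.57 (SE 1.20). NCU04870 was listed at 0 in every wild-type library on sucrose and on Avicel up to 1 h, and had 67.7 FPKM at 2 h and 9399, 5098 and 6862 at 4 h (6.10, SE 0.45, adjusted p = 3.34e-05).

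cdt-1 and clr-2 took a different course, high from the first library on. cdt-1 was at 2947 FPKM at 30 min, 1679.6, 2708 and 2334 at 1 h, 6638 at 2 h and 41156, 12847 and 13786 at 4 h. clr-2 was at 97.7, 73.6, 127 and 97.9, 179 and 1521, 1122 and 1289.6 FPKM. Their differences between 1 h and 2 h were 1.59 and 0.87 and did not pass. grp78 was at 2951 FPKM at 30 min, 2714, 4643 and 5141 at 1 h and 3377 at 2 h, inside the 1 h range, and at 15979, 11826 and 13257 at 4 h.

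**Figure D3:**
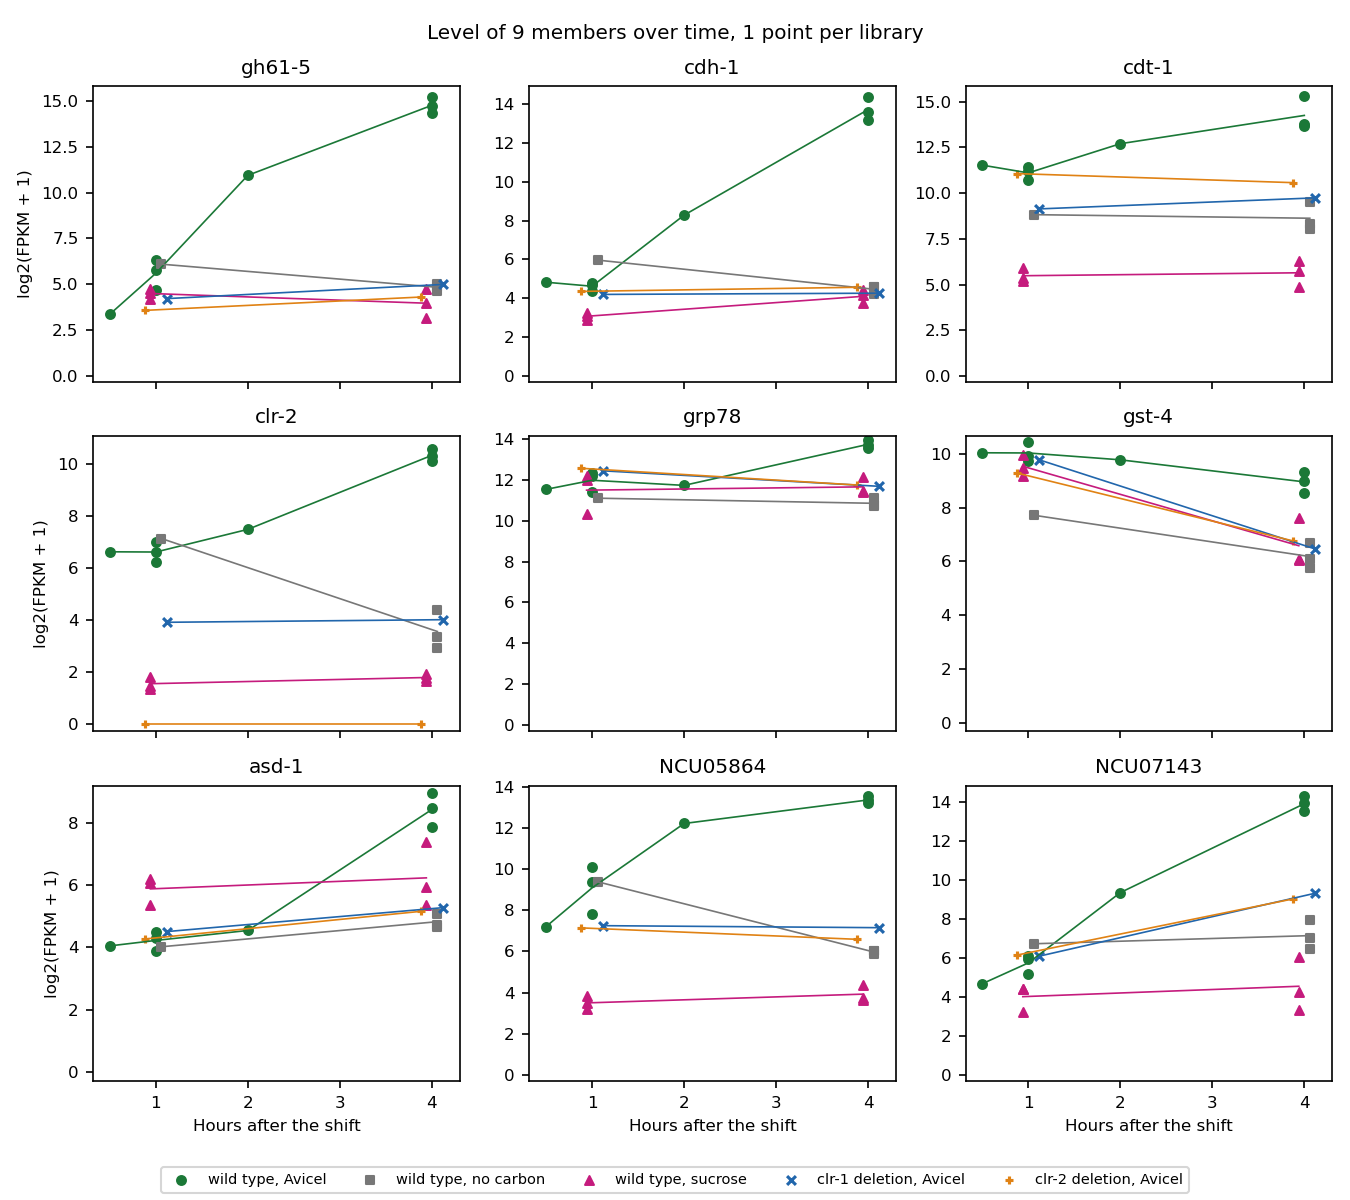
Level of 9 members as log2(FPKM + 1) against hours after the change of medium, 1 point per library, with lines through the group means of the log2 values and small sideways shifts to keep points apart. gh61-5, cdh-1 and NCU07143 are far higher on Avicel at 2 h and 4 h than at 1 h, cdt-1 and clr-2 are high from 30 min, and gst-4 is lower at 4 h than at 1 h in every medium and strain, with the smallest drop in wild type on Avicel.

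On Avicel at 4 h a median of 2.44% of the wild-type mean was left in the clr-1 deletion and 3.31% in the clr-2 deletion, with ranges of 0% to 23.9% and 0% to 24.98% that the choice of members bounds. At 1 h, where the choice did not reach, the median log2 differences were -0.51 in the clr-1 and -0.41 in the clr-2 deletion, and 0.00 for all tested genes in both. With limma no member passed in the clr-1 deletion (0 of 80, with 10 at an unadjusted p under 0.05; background 0% higher and 0.0116% lower). In the clr-2 deletion clr-2 itself passed (-6.62, SE 0.50, adjusted p = 9.48e-06) and no other member did (8 at an unadjusted p under 0.05; background 0% and 0.0579%). On sucrose at 1 h no member passed in either deletion strain by limma (0 of 80 in both, with 0 and 1 at an unadjusted p under 0.05), where 0.0116% of all tested genes were higher and 0.0348% lower in the clr-1 deletion and 0.0116% and 0.0579% in the clr-2 deletion.

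The wild-type 1 h replicates spread widely for the members that moved most. gh1-1, the gene of an intracellular beta-glucosidase, had 143, 5127 and 6376 FPKM in the 3 wild-type Avicel libraries at 1 h, and NCU04522 had 55.4, 637 and 966. Replicate 1, of 36-base reads, was the low one in both. Without the replicate 1 libraries of shorter reads, 9 members were lower in the clr-1 deletion (background 0.104% higher and 0.324% lower) and 7 in the clr-2 deletion (background 0.0231% higher and 0.197% lower), and these were the members that passed. Leaving out wild-type Avicel replicate 1 alone gave 4 members in each strain.

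In the clr-1 deletion these 9 were led by NCU05863, with 1.43 FPKM against 4.93, 29.4 and 40.1 in wild type (-3.86, adjusted p = 0.0011, without those libraries). gh1-1 had 543 FPKM (-3.39, adjusted p = 0.0185), clr-2 13.98 against 73.6, 127 and 97.9 (-2.91, adjusted p = 0.0454) and NCU05846 116 against 89.9, 655 and 627 (-2.45, adjusted p = 0.000284). The others were NCU04522, gh6-3, NCU05864, gh3-6 and gh61-7, with log2 differences of -2.72 to -1.86. Over all the settings tried, adjusted p ran from 0.000284 for NCU05846 to 1 for these 9 genes, and for clr-2 from 0.0454 to 0.930. In the clr-2 deletion the members lower besides clr-2 were NCU11068, with 5.91 FPKM against 20.5, 228 and 448 (-5.53, adjusted p = 0.0128), NCU05864, gh61-5, gh61-7, gh2-1 and NCU00870, the last 5 with differences of -2.59 to -1.78. Over the settings, adjusted p ran from 9.70e-07 to 0.00629 for clr-2 and from 0.00428 (gh2-1) to 1 for the other 6. NCU05864 and gh61-7 were lower in both strains.

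The strains were also set against each other at 1 h. By limma on all libraries only clr-2 differed (3.91, SE 0.61, adjusted p = 0.0351; 8 members at an unadjusted p under 0.05; background 0.0464% higher and 0.0116% lower in the clr-1 deletion). Without the replicate 1 libraries of shorter reads, NCU05863 (-2.90, adjusted p = 0.0227), NCU05846 (-2.68, adjusted p = 0.00046) and gh6-3 (-2.29, adjusted p = 0.0123) were lower in the clr-1 deletion (background 0.104% lower) and clr-2 higher (background 0.0462% higher). Over the settings, adjusted p of these 3 genes and of clr-2 ran up to 1, from 0.000460 (NCU05846) and 0.000544 (clr-2). The Avicel response at 1 h, that is Avicel less sucrose, changed in the clr-1 deletion for no member on all libraries (0 of 80 by limma, with 5 at an unadjusted p under 0.05; background 0%). Without the shorter reads it was smaller for gh1-1, NCU05863, NCU05846 and gh6-3, with log2 differences of -4.12 to -1.95 (background 0.474% higher and 0.578% lower). In the clr-2 deletion the one member that passed was clr-2 (-5.08, SE 0.70, adjusted p = 0.0499; background 0% higher and 0.0116% lower), and that call was lost without any 1 of 5 wild-type 1 h libraries, with log2 differences of -5.22 to -4.89 there.

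Side by side, most members were within 2-fold between the deletion strains, but a larger share than of all tested genes lay outside. At 1 h 64 were within 2-fold, some of them, gh61-4 included, because they were listed at 0 in both strains. Another 10 were at least 2-fold higher in the clr-2 deletion and 6 in the clr-1 deletion, where 1.14% and 1.51% of all tested genes were. At 4 h 62 were within 2-fold, 10 were higher in the clr-2 deletion and 8 in the clr-1 deletion (0.510% and 1.98% of all tested genes). The direction held at both times for 7 and 3 of them. One gene of the 6, the 8 and the 3 is clr-2, whose direction its own deletion fixes. cdt-1 had 561 FPKM in the clr-1 and 2138 in the clr-2 deletion at 1 h, the second inside the wild-type range of 1679.6, 2708 and 2334. gh1-1 had 543 and 5632 FPKM at 1 h and 751 and 2743 at 4 h. NCU04522 had 118 and 715 at 1 h and 21.1 and 99.7 at 4 h, lower at 4 h than at 1 h in both, while wild type was at 2676, 1172 and 1497. The reverse held for NCU11068, which had 112 FPKM in the clr-1 and 5.91 in the clr-2 deletion at 1 h, and 658 and 6.03 at 4 h. Each of these values is 1 library, and the 4 h values, which the choice of members bounds in both strains, carry no test.

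**Figure D4:**
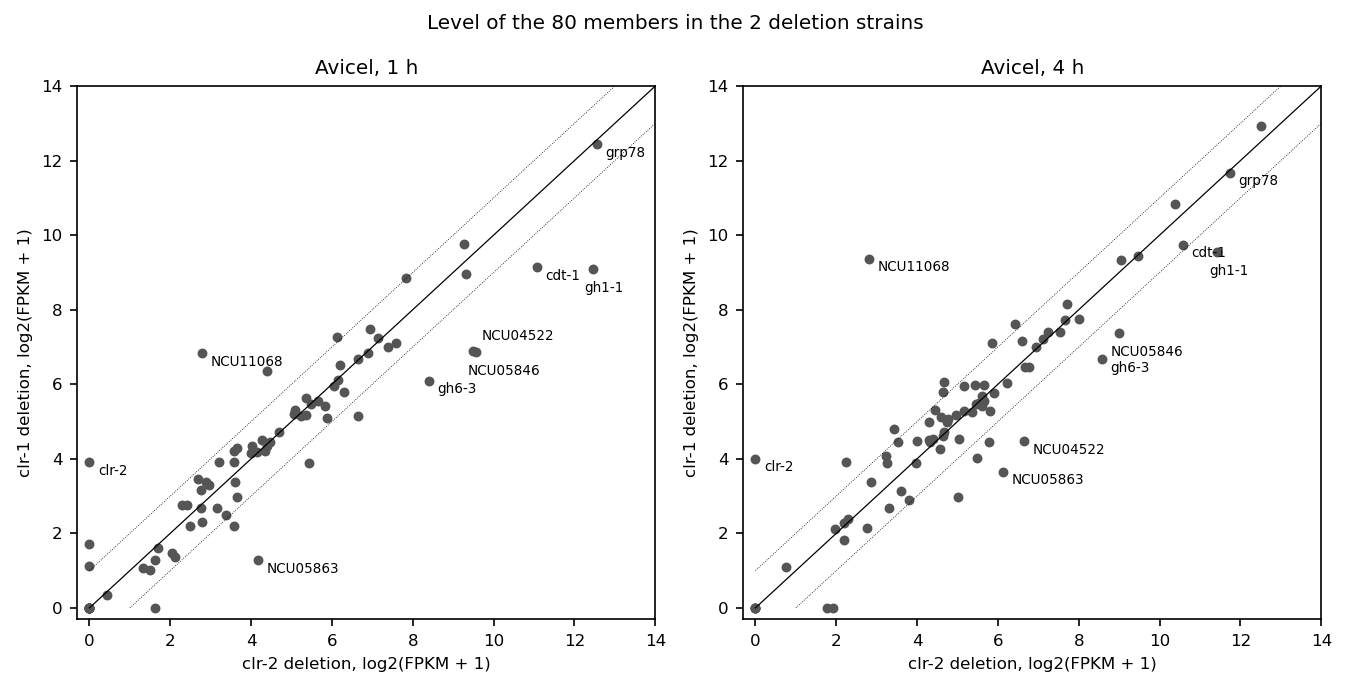
Level of the 80 members in the clr-2 deletion (x axis) and the clr-1 deletion (y axis) on Avicel at 1 h and 4 h, as log2(FPKM + 1), 1 library per strain and time; the solid line marks equal levels and the dotted lines 2-fold. gh1-1, NCU05846, NCU05863 and gh6-3 lie under the line at both times and NCU11068 far above it.

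Some members lie next to one another in the genome. Ordered by the coordinates in the files, whose contigs are supercontigs and whose build is not given in the sources used here, 19 of 80 members (23.75%) had another member as a direct neighbour, in 10 adjacent pairs, whereas 1.62% of all genes had a member next to them. In all 10 pairs the partners differed at least 10-fold in level on Avicel at 4 h. The lower partner had no symbol in all of them. The gaps ran from 275 to 4781 bases with a median of 1384, against 993 over all adjacent genes, and no pair overlapped.

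The widest of these differences was around the endoglucanase gene gh5-1 (supercontig 10.1, 7271714 to 7273108), which had 68101, 32852 and 43671 FPKM on Avicel at 4 h. Its neighbour NCU00761 (supercontig 10.1, 7274308 to 7276061) had 27.2, 17.2 and 25.98, a mean of 0.0486% of the gh5-1 mean, and NCU00763 (supercontig 10.1, 7267094 to 7271438) on the other side had 196, 87.5 and 98.6, or 0.264%. NCU07339 (supercontig 10.4, 4315214 to 4315966), 1332 bases from cbh-1, had 203, 193 and 197 FPKM where cbh-1 had 186620.0, 86756 and 104215. It was nearly constant over the replicates while cbh-1 varied. NCU02915, next to gh61-3, was the least unequal partner, with 784, 798 and 937 FPKM, or 6.46% of the gh61-3 mean.

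Time and strain also set some lower partners apart from the higher ones. NCU02915 had 267, 232 and 181 FPKM on Avicel at 1 h, when gh61-3 had 40.3, 97.8 and 67.9, and rose over sucrose at 1 h by 3.84 on the log2 scale against 1.50 for gh61-3. In the deletion strains at 4 h NCU02915 kept 149 and 139 FPKM and gh61-3 37.7 and 54.8. It was therefore the higher of the pair on Avicel at 1 h in wild type and at 4 h in both deletion strains. NCU05863 and NCU05864 parted in the deletion strains: at 1 h NCU05864 had 151 and 140.2 FPKM in the clr-1 and clr-2 deletion, and NCU05863 had 1.43 and 17.1. NCU07224 and its neighbour gh11-2 both kept some level in the deletion strains at 4 h, 21.8 and 18.7 FPKM for NCU07224 and 7716 and 5807 for gh11-2. Whether reads that run on from the higher gene enter the lower one was not tested; the protocol in the labels used random primers and states no strand mark.

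**Figure D5:**
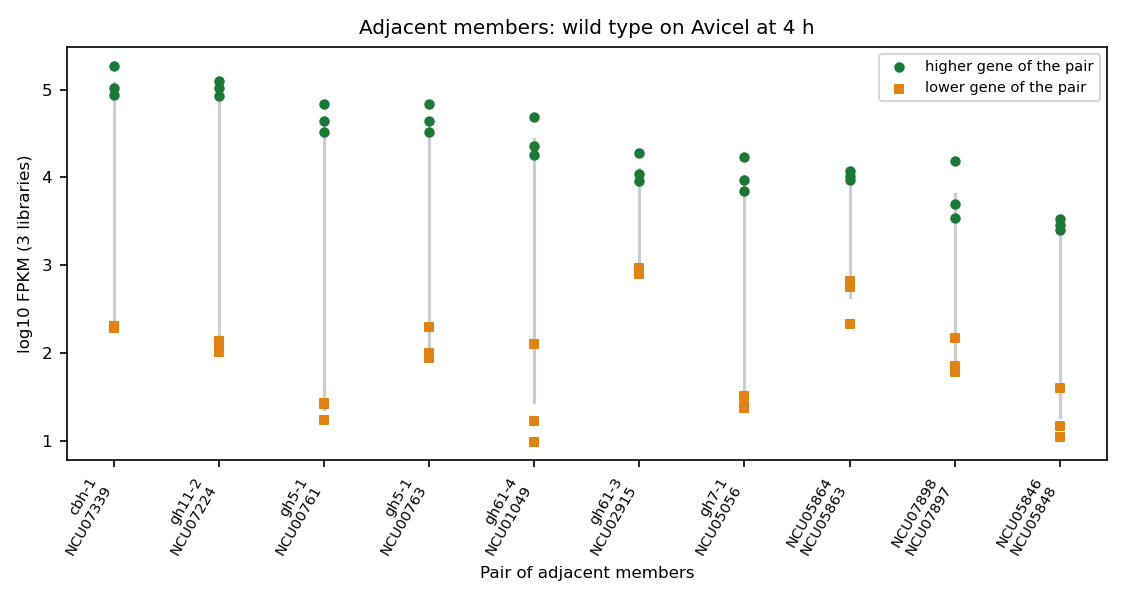
Level of both genes of the 10 adjacent pairs of members in the 3 wild-type Avicel 4 h libraries, on a log10 scale of FPKM, with a grey line between the mean log10 values of the partners. The lower partner (orange squares) stands below the higher one (green circles) in every library, from 6.46% of its mean level for NCU02915 to 0.0486% for NCU00761.

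Other genes of the same roles put the members in context, beside the 37.3% of all tested genes that were higher and 24.6% lower on Avicel at 1 h and the 1.65% higher from 1 h to 2 h. Of 4 sugar transporter genes with a symbol, all 4 rose on Avicel against sucrose at 1 h, and cdt-1 was the one member. The log2 differences were 8.42 for cdt-2, 5.45 for hgt-1 and 1.95 for sor-4. Of 6 regulator genes, clr-2 was the one member. At 1 h clr-1 and xlr-1, the xylanase regulator gene, had log2 differences of 3.43 and 5.52 and rose like clr-2. The genes vib-1 and cre-1 fell (-2.86 and -1.96), and col-26 did not pass (-0.35). Of the 13 monooxygenase and cellobiose dehydrogenase genes 10 passed at 1 h, each higher, with a median difference of 2.35, and 6 rose from 1 h to 2 h. Of 64 tested glycoside hydrolase genes 42 rose and 3 fell at 1 h, 15 of the 64 being members. The 62 cellulose-specific genes that were not members had 50 that passed at 1 h, each higher, with a median of 2.68, and 5 from 1 h to 2 h, with a median of 1.14. The members had 45 higher and 4 lower at 1 h and 26 higher at 2 h, and the difference between the groups was not tested.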

How the data were processed

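RNA-seq was made from poly(A) RNA with random primers, per the labels' protocols. The submitters' processing notes name TopHat and Cufflinks 0.9.3. FPKM values and read coverage per transcript were used as deposited, per the file headers. Only the gene identifiers were taken from the authors' deposited cluster list, whose weight column is a score. The genome build is not given in the sources used here. The 75th percentile of FPKM was alike in all files (233 to 278), and how the authors scaled FPKM is not stated. The labels do not say whether replicates came from separate cultures, so p-values measure only the spread between these samples, which may be technical.

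FPKM of the 9907 transcripts was summed to 9733 genes (164 had more than 1 transcript). Coverage times length gave whole reads, within 0.02, for 87.5% to 93.0% of the transcripts under 200 reads, which set the depth and read length of each library. The reference table (NC12) named 8914 genes, of which 1093 had a symbol. Tests used limma 3.58.1 in R 4.3.3 on log2(FPKM + 1), 1 mean per group over all 26 libraries (10 residual degrees of freedom, 3.35 prior, median residual SD 0.39), for genes whose mean reached 1 FPKM. Fold changes of low genes are understated on this scale. Summaries used Python 3.11.15 and pandas 2.3.3. The fit was run on simulated data with planted changes of at least 4-fold in 200 of 8629 genes. It recovered 82% of these for Avicel against sucrose at 1 h and 64% for the clr-1 deletion on Avicel at 1 h. There were 13 and 8 false calls. The members' median differences in the deletion strains at 1 h were smaller than 4-fold, so 64% does not hold for differences of that size. Between wild type on Avicel and on sucrose at 1 h, deviations from the group means correlated at 0.176 to 0.283 for the same replicate number and at -0.263 to 0.188 for different numbers. The labels give no shared batch. Across these 2 groups, replicates 2 and 3 correlated at 0.174 and 0.188 for different numbers and 0.176 and 0.236 for the same. All negative values set replicate 1, of 36-base reads, against replicate 2 or 3. So the data set replicate 1 apart and do not pair replicates 2 and 3 by number. Over all 10 pairs of replicated wild-type groups the ranges were -0.314 to 0.453 and -0.495 to 0.446. The numbers did not pair the groups throughout. A fit with the replicate number as a block was still run as an alternative for Avicel against sucrose at 1 h. The other alternatives were the pseudocount, the filter, the scaling, the variance trend, left-out libraries and the libraries the choice did not use. The filter without the wild-type Avicel 4 h libraries was added after the data had been seen.

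The members and lists were chosen with earlier results of these data known. Named were clr-1 and clr-2, members with a symbol, and the highest members that are not hydrolases by symbol. Also named were the largest rises and every fall at 1 h and the largest falls in each deletion strain. The genes nearest to the limits and neighbouring members were named too. Genes in the between-strain and no-carbon sentences were named after their values were seen. Of 50 identifiers in the lists, 17 had no symbol in the reference and were left out. Protein and promoter features were not analysed here, and the authors' tables of tests were not used here.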

Additional observations from a re-analysis of the deposited data

Results flagged for a closer look

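The Avicel response of clr-2 at 1 h, Avicel less sucrose, was smaller in its own deletion strain than in wild type by limma, with a difference of -5.08 on the log2 scale in the test of the difference itself. The gene is deleted in that strain and was listed at 0 there, so this is a check of the strain.

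In 4 members Avicel libraries lay below the sucrose libraries at 1 h and above them at 4 h, each time without overlap. The log2 differences at 1 h were -0.84 for NCU04494, -1.66 for asd-1, -2.81 for NCU09764 and -2.42 for NCU11753. The difference between the times was not tested. The 4 h direction was fixed by the choice of the members, and 1.58% of all genes had the same pattern. Without replicate 1 on Avicel at 4 h, asd-1, NCU04494 and NCU11753 no longer met the limits.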

How the results depend on the processing

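Avicel against sucrose and no carbon against sucrose at 1 h, and both deletions on sucrose at 1 h apart from 1 member for clr-2 with a pseudocount of 0.1, gave counts within 1.5 times the reported ones under every alternative run. With the replicate block 50 members passed for Avicel against sucrose, 48 of them among the 49. Without the replicate 1 libraries of shorter reads, counts were 22 for Avicel against no carbon, 53 for 2 h against 1 h, 9 and 7 for the clr-1 and clr-2 deletions on Avicel, 4 between the deletions and 4 for the changed response in the clr-1 deletion. A pseudocount of 5 gave 2 for Avicel against no carbon and 0 between the deletions. A pseudocount of 0.1 gave 13 for 2 h against 1 h and 0 for the changed response in the clr-2 deletion. Median ratio scaling, and the libraries the choice did not use, gave 0 between the deletions and 0 for that response, as did the filter at 5 FPKM for the response. Leaving out 1 library at a time gave 0 to 3 for Avicel against no carbon, 19 to 29 for 2 h against 1 h, 0 to 4 for the clr-1 and 1 to 4 for the clr-2 deletion on Avicel, and 0 to 1 for either changed response. The upper ends for Avicel against no carbon, both deletions on Avicel and the changed response in the clr-1 deletion came from leaving out wild-type Avicel 1 h replicate 1. The cause was not tested. The choice itself gave 66 to 92 genes over the wild-type 4 h libraries left out in turn, 82 and 76 with pseudocounts of 0.1 and 5, 100 and 68 at 3-fold and 6-fold, 70 with medians and 85 after scaling. Of the results for the 49 genes called for Avicel against sucrose, 746 of 783 stayed past the threshold. No value that passed on all libraries changed direction, and named values that did not pass there were no part of that check. Groups of 1 library limit every deletion, 2 h and no-carbon 1 h test. Without the replicate 1 libraries of shorter reads, the 2 h test set 36-base reads against 50-base reads.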
